A study of Arabidopsis thaliana with 6 samples.

Results

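The genes studied here build and position the Casparian strip, and 8 were chosen by gene identifier. The 7 described here are CASP1 (AT2G36100), CASP2 (AT3G11550), CASP4 (AT5G06200), CASP5 (AT5G15290), ESB1 (AT2G28670), MYB36 (AT5G57620) and SGN3 (AT4G20140, named GSO1 in RefSeq). The deposited expression table holds 33602 genes. Polyadenylated RNA was measured in roots of Arabidopsis thaliana seedlings aged 8 days, all of the Col-0 accession. The groups were wild type with sufficient phosphate (replicates 1 and 2), wild type with deficient phosphate (replicates 3 and 4) and the phl2 mutant with deficient phosphate (replicates 5 and 6). PHL2 belongs with PHR1 to a family of MYB-related factors that activate genes of the response to phosphate shortage. The comparisons ask how deficiency (starved roots below) and the phl2 mutation bear on transcript levels. The labels give neither the nature of the phl2 allele nor the number of lines, and phl2 with sufficient phosphate was not analysed here.

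The Casparian strip is a band of lignin in the walls between endodermal cells, which closes the wall space to ions moving between soil and vascular tissue. CASP proteins, which span the plasma membrane, gather into a belt that marks where the lignin is laid down by peroxidases, an NADPH oxidase and dirigent proteins such as ESB1. MYB36 switches on these genes in the differentiating endodermis, and the receptor kinase SGN3 senses peptides that leak past an unfinished strip and calls for its closure.

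The values were RPKM, that is reads scaled to gene length in kilobases and to the total of the library, so levels can be set side by side between genes as far as the authors' gene lengths hold. The smallest steps of the values gave whole reads, and all reads in the table made up 5.44% to 9.07% of the library totals that the values are divided by. The phl2 columns held equal reads in 81.0% of genes and differed by less than the sampling noise, so their mean was used as 1 sample. Neither the files nor the annotation used pair the name PHL2 with an identifier. AT3G24120, generally known as PHL2, stood at 1.65 and 2.37 RPKM with phosphate, 2.14 and 2.24 in starved wild type and 1.04 and 0.934 in the columns of phl2, a log2 difference between phl2 and deficient wild type of -0.68 ± 0.22 as deposited (limma adjusted p = 0.055) and of -0.23 ± 0.24 with the libraries rescaled (adjusted p = 0.66), called on neither scale. The labels do not say that replicates are separate plants or cultures, and the spread behind each p-value may thus be technical. The libraries were strand-specific, but no source used here gives the strand setting of the counting, so whether a value counts reads of the gene's own strand or of the opposite strand cannot be told from the sources. In whole roots, fewer endodermal cells and less RNA per cell cannot be told apart.

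Values of the endodermal markers were low, and with the strand setting unknown they may not be levels of the genes' own transcripts. SCR, which specifies endodermal fate, stood at 0.635 and 0.359 RPKM with phosphate, 0.755 and 1.03 in starved wild type and 0.81 and 0.936 in the columns of phl2. PER64, the peroxidase of the strip, stood at 3.89 and 3.09, at 4.14 and 3.74, and at 2.03 and 2.2. Of the 7 members described, 6 were above 0 in every library, and only CASP4 of them was listed at 0 in any.

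The sequences of the CASP genes are shown first because they bear on how far their low counts can be kept apart. CASP1, CASP2, CASP4 and CASP5 encode similar proteins, so a read in a shared stretch could be given to more than 1 of them. In pairwise alignments of the coding sequences of RefSeq (build TAIR10.1), CASP2 and CASP4 were 80.6% identical, with 491 of 609 aligned bases the same. The other 5 pairs of these 4 genes were 61% to 66.8% identical. The longest exact run shared by CASP2 and CASP4, in capitals below, was 20 bases, and the longest shared by any other pair was 17 bases. No source used here gives the read length or the treatment of reads that map to several places.
Coding run shared by CASP2 and CASP4: CTCCGTTTAGCTGCCATTGT

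CASP2 and CASP4 also shared a run of bases in the windows around their annotated starts. The windows below run from 250 bases before to 50 bases after the annotated start. They are shown for CASP2 and CASP4 because they hold the longest run that any of the 21 pairs of the 7 members shared, and for CASP1 because its values went apart from those of CASP2 below. CASP1 lies on the minus strand and its window is printed 5′ to 3′ on that strand (chr2:15160750-15161049, TAIR10.1). The windows of CASP2 (chr3:3637928-3638227) and CASP4 (chr5:1876884-1877183) are on the plus strand.
CASP1: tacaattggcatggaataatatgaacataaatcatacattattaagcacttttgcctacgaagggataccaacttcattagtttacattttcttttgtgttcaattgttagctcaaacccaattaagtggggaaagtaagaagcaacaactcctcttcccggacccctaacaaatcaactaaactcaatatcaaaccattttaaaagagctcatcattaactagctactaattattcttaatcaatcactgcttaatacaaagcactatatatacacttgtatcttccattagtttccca
CASP2: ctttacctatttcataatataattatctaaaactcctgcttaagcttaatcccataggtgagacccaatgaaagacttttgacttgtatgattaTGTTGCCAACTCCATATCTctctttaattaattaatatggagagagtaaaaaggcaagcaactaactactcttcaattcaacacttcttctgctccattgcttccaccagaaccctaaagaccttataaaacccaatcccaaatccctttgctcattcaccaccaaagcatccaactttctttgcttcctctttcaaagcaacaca
CASP4: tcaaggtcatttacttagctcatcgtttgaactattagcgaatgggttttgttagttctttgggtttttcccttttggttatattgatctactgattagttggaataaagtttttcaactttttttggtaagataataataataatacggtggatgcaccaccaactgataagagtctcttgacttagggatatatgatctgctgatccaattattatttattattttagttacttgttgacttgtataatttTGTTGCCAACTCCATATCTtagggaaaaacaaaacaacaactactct
Capitals mark the 19 bases that CASP2 and CASP4 share. Of the 27443 windows of the same length at nuclear protein-coding genes, 2 held this run, those of CASP2 and CASP4. The longest run shared by any other pair of members was 10 bases. The run began at base -156 from the annotated start of CASP2 and at base 3 from that of CASP4. It thus lies upstream of the start in CASP2 and past the start in CASP4. The windows were not aligned beyond this run.

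None of the 7 members' windows held the P1BS element GNATATNC, the site bound by PHR1 and its relatives, on either strand. It was in 6.25% of the 27443 windows. The letters GATATTC, which P1BS holds when its first N is G and its second N is T, were in 0 of 7 members' windows and in 4.05% of all. ACCNACC, an element of many lignin genes, was in 0 of 7 and in 7.39% of all. These counts say only that the letters are not in these windows.

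ESB1 had the highest RPKM of the 7 members in every library, and the CASP genes formed a graded series below it. In sufficient wild type ESB1 stood at 5.34 ± 0.023 RPKM (SD, n = 2). CASP2 at 1.5 ± 0.24, CASP1 at 1.45 ± 0.061 and MYB36 at 1.18 ± 0.22 did not differ beyond their spread. SGN3 at 0.932 ± 0.19 followed and overlapped MYB36 in spread, CASP5 came next at 0.557 ± 0.11, and CASP4 was lowest at 0.251 ± 0.11. In deficient wild type MYB36 (2.4 ± 0.39) and CASP1 (2.35 ± 0.14) came next after ESB1 (4.63 ± 0.14) and did not differ beyond their spread. SGN3 (1.42 ± 0.15) and CASP2 (1.16 ± 0.23) came below them, ahead of CASP5 (0.224 ± 0.15). The steps of CASP4 imply an authors' gene length of 609 bases, its coding length, against 1016 exonic bases in RefSeq. Its place in this order thus depends on the gene model used. Implied lengths of the other members also differed from RefSeq, by less, as for CASP2 (827 against 995) and CASP1 (855 against 904). Close places in this order, and the RPKM shares below, carry the same limit.

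**Figure D1:**
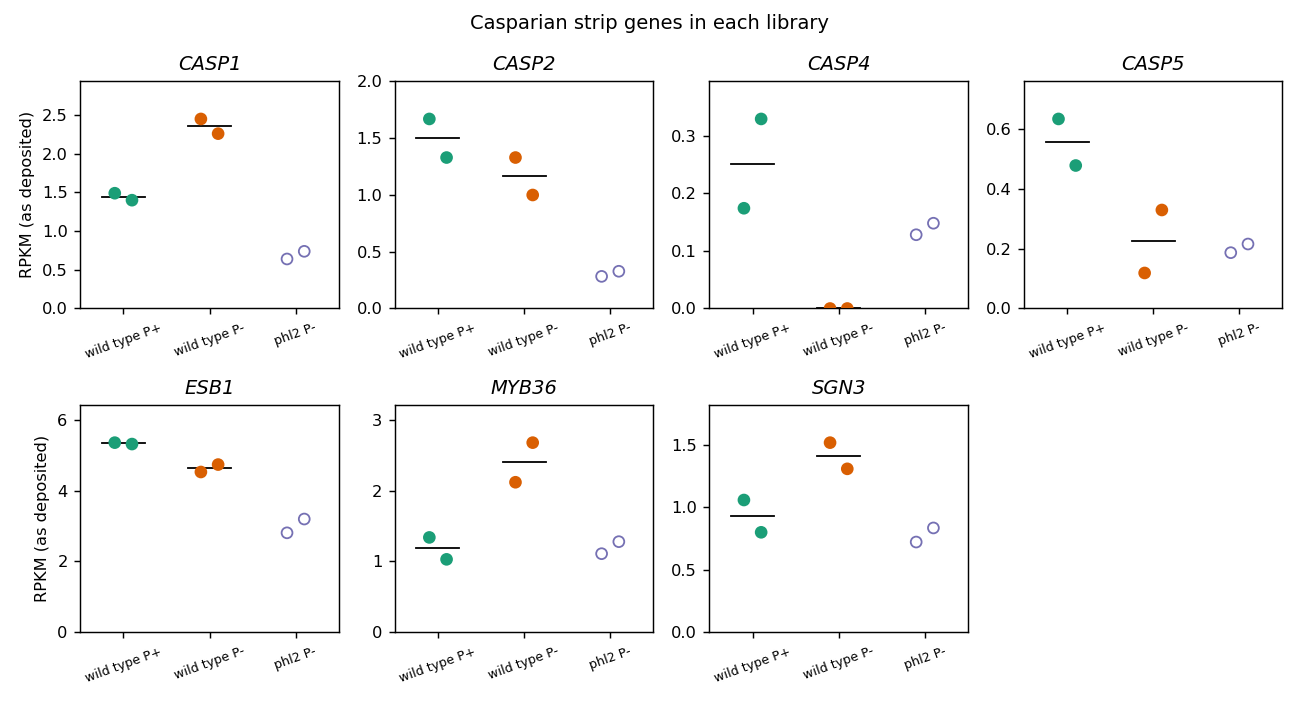
RPKM as deposited (vertical axis, own scale for each gene) of 7 Casparian strip genes in wild type with sufficient phosphate (P+), wild type with deficient phosphate (P-) and deficient phl2. Filled points are libraries, short lines are means of 2 wild-type libraries, and open points are the phl2 columns that count as 1 sample. MYB36 stands at 2.12 and 2.68 in starved wild type, above the other libraries, and CASP2 stands lowest in phl2, at 0.283 and 0.328.

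CASP1 and CASP2, which form the belt together with the other CASP proteins, stood near each other with phosphate and apart without it. CASP1 was at 1.49 and 1.4 RPKM in sufficient wild type, on 12 and 12 reads, at 2.45 and 2.26 in starved wild type, on 21 and 21 reads, and at 0.64 and 0.739 in the columns of phl2, on the same 7 reads. As deposited, the deficient wild-type libraries of CASP1 were the highest and phl2 the lowest, with no overlap between groups. Most genes moved in these directions. Replicate 3 held more reads than replicate 1 in 16672 of 22819 genes above 0 in either. Replicate 5 held fewer than replicate 3 in 16842 of 22875. The share of all genes with no overlap was not counted. CASP2 was at 1.67 and 1.33 RPKM with phosphate, on 13 and 11 reads, at 1.33 and 1 in starved wild type, on 11 and 9 reads, and at 0.283 and 0.328 in the columns of phl2, on 3 reads. The wild-type groups of CASP2 met at 1.33, and phl2 was below all 4 wild-type libraries.

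CASP4 and CASP5 rested on few reads and did not reach 1 RPKM in 2 libraries, the level needed for a test. CASP5 was at 0.635 and 0.479 RPKM with phosphate, at 0.119 and 0.33 in starved wild type and at 0.187 and 0.216 in phl2. Both sufficient libraries were above the other 4 columns, with 9 reads summed over them (95% exact Poisson interval 4.12 to 17.1) against 4 in starved wild type (1.09 to 10.2), intervals that overlap. CASP4 was at 0.174 and 0.329 with phosphate, on 1 and 2 reads, listed at 0 in both deficient wild-type libraries and held by 1 read in phl2. A sum of 0 reads allows up to 3.69, which covers the 3 reads seen with phosphate, so a difference was not detectable at this depth. Such intervals cover counting error only.

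**Figure D2:**
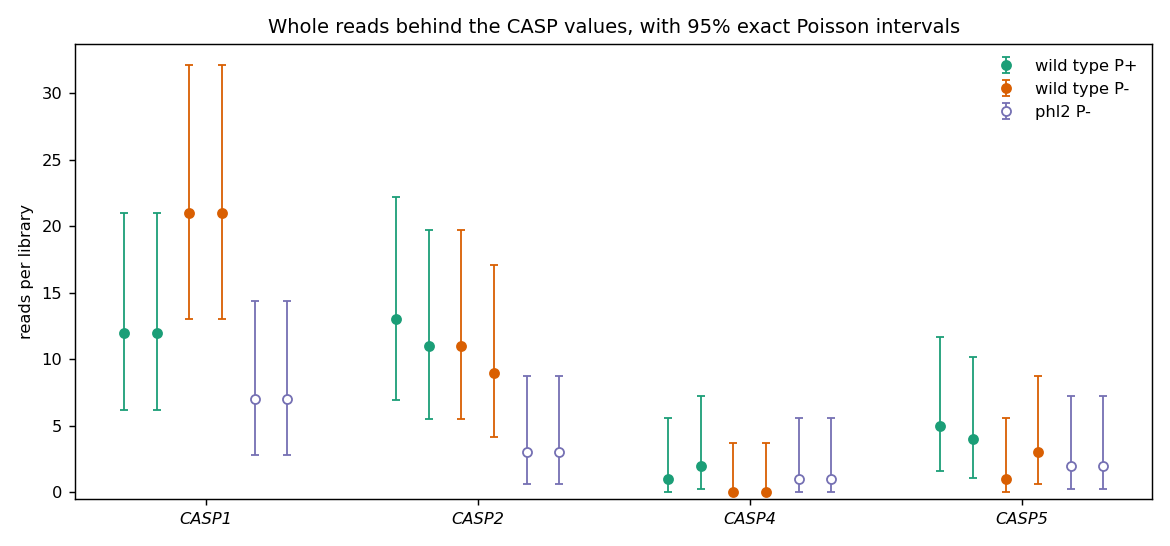
Whole reads per library (vertical axis) for CASP1, CASP2, CASP4 and CASP5 in wild type with sufficient phosphate (P+), wild type with deficient phosphate (P-) and deficient phl2; bars are 95% exact Poisson intervals for counting error. Open points are the phl2 columns that share their reads. CASP1 had 21 reads in each deficient wild-type library and 7 in phl2, and CASP4 had 2 reads at most.

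The shares of these 4 CASP genes in their summed RPKM do not depend on how libraries are scaled against each other. CASP1 made up 37.5% and 39.6% of the sum in the sufficient libraries, 62.9% in both libraries of deficient wild type, and 51.7% in phl2. CASP2 made up 42.1% and 37.6%, then 34.1% and 27.9%, and 22.9% in phl2. The share of CASP1 was higher in both deficient wild-type libraries than in the other columns. The share of CASP2 was highest in the sufficient libraries and lowest in phl2, with no overlap between groups. CASP5 made up 16% and 13.5%, then 3.06% and 9.19%, and 15.1% in phl2, where it lay within the range of the sufficient libraries. The summed RPKM of the 4 genes was 3.97 and 3.54 with phosphate, 3.89 and 3.59 in starved wild type and 1.24 and 1.43 in the columns of phl2, on 31, 29, 33, 33, 13 and 13 reads.

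Counted in reads, CASP1 took 24 of the 48 reads of CASP1 and CASP2 in sufficient wild type, or 50% (95% exact Clopper-Pearson interval 35.2% to 64.8%). In deficient wild type it took 42 of 62, or 67.7% (54.7% to 79.1%), and the intervals of these groups overlap. In phl2 it took 7 of 10 reads, or 70% (34.8% to 93.3%), an interval that holds both wild-type shares. The share in single wild-type libraries was 48% and 52.2% with phosphate and 65.6% and 70% without it.

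**Figure D3:**
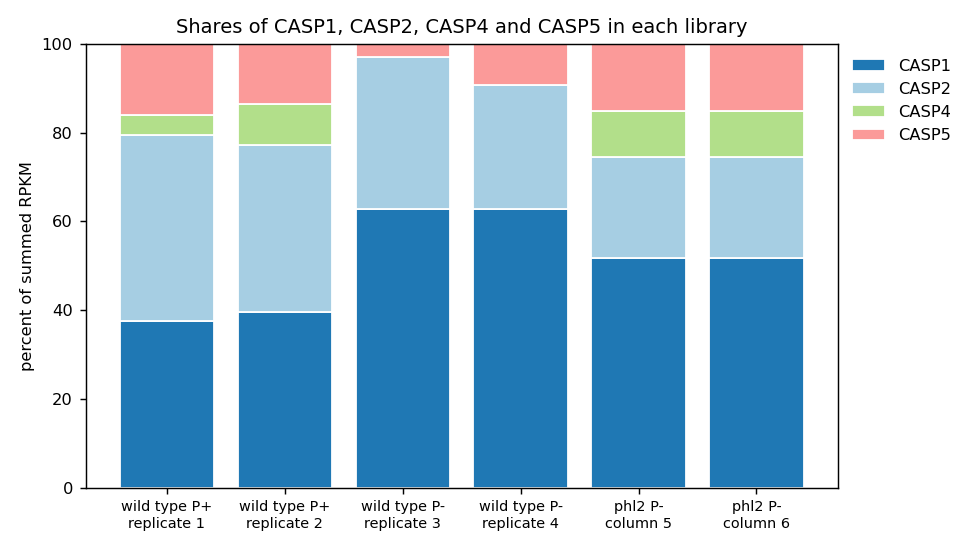
Share of each CASP gene in the summed RPKM of CASP1, CASP2, CASP4 and CASP5 (vertical axis, percent; stacked bars) for each column of the table, with P+ for sufficient and P- for deficient phosphate. CASP1 makes up 62.9% in both libraries of deficient wild type against 37.5% and 39.6% with phosphate, and CASP2 makes up 22.9% in the columns of phl2, which share their reads.

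Changes between groups were tested with limma on log2(RPKM + 1), a scale that understates the changes of low genes, for 11463 genes, those that reached 1 RPKM in at least 2 columns. CASP1, CASP2, ESB1, MYB36 and SGN3 were among them. A gene was called where its adjusted p (Benjamini-Hochberg over all tested genes, two-sided) was under 0.05, and errors of log2 changes are standard errors. Because most genes moved together between the libraries, each comparison is given as deposited and then with the libraries rescaled by the median of their ratios to the geometric mean, which brings the median gene close to no change. The phl2 columns count as 1 sample with no spread of its own, so each test against phl2 borrows the spread of the wild-type libraries.

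Between deficient and sufficient wild type, MYB36, the transcription factor that activates the CASP genes, was the member called higher as deposited. It stood at 1.34 and 1.03 RPKM with phosphate, on 16 and 13 reads, at 2.12 and 2.68 in starved wild type, on 27 and 37 reads, and at 1.11 and 1.28 in the columns of phl2, on 18 reads. As deposited, both deficient wild-type libraries were above all other columns, the direction in which most genes moved. MYB36 rose by 0.64 ± 0.18 on the log2 scale (limma adjusted p = 0.028), and by 0.31 ± 0.15 after rescaling, where it was not called (adjusted p = 0.2). The call as deposited was also lost without replicate 2, 3 or 4, with adjusted p = 0.12, 0.12 and 0.17 (range over all alternatives 0.0047 to 0.7).

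CASP1 differed by 0.45 ± 0.16 (limma adjusted p = 0.059) as deposited and by 0.11 ± 0.12 (adjusted p = 0.58) after rescaling, and was called on neither scale. CASP2 differed by -0.21 ± 0.17 (adjusted p = 0.34) as deposited. After rescaling it fell by 0.49 ± 0.13 (adjusted p = 0.04), a call that was lost without replicate 3 or 4 (adjusted p = 0.16 and 0.23; range over all alternatives 0.0078 to 0.76). As deposited, CASP1 lay above the median change of all tested genes and CASP2 below it.

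SGN3, the receptor of the barrier-sensing peptides, was at 1.06 and 0.801 RPKM with phosphate, on 40 and 32 reads, at 1.52 and 1.31 in starved wild type, on 61 and 57 reads, and at 0.723 and 0.836 in the columns of phl2, on 37 reads. As deposited, the deficient wild-type libraries were above the others, the direction in which most genes moved. Its log2 difference in wild type of 0.32 ± 0.16 (limma adjusted p = 0.15) was 0.04 ± 0.12 after rescaling (adjusted p = 0.83), and neither was called.

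ESB1, a dirigent protein needed for an unbroken lignin ring, was at 5.36 and 5.32 RPKM with phosphate, on 91 and 96 reads, at 4.53 and 4.74 in starved wild type, on 82 and 93 reads, and at 2.81 and 3.2 in the columns of phl2, on 65 and 64 reads. As deposited the groups did not overlap, with sufficient wild type highest and phl2 lowest. ESB1 differed in wild type by -0.17 ± 0.14 (limma adjusted p = 0.35) as deposited. After rescaling it fell by 0.60 ± 0.13 (adjusted p = 0.026), a call lost without replicate 3 or 4 (adjusted p = 0.19 and 0.11; range over all alternatives 0.008 to 0.64).

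In all, 1 of the 5 tested members was called higher and 0 lower as deposited in deficient against sufficient wild type, where 28% of all tested genes were called higher and 4.45% lower. The median change of the 5 was 0.32, beside 0.332 for all tested genes. After rescaling, 0 were called higher and 2 lower, CASP2 and ESB1, against backgrounds of 7.79% and 12.3%, with a median change of 0.04 beside -0.00906 for all tested genes. At an unadjusted p under 0.05 in limma, 2 members were higher and 0 lower as deposited, beside 41.6% and 6.36% of all tested genes. After rescaling 0 were higher and 2 lower, beside 14.8% and 20.3%.

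**Figure D4:**
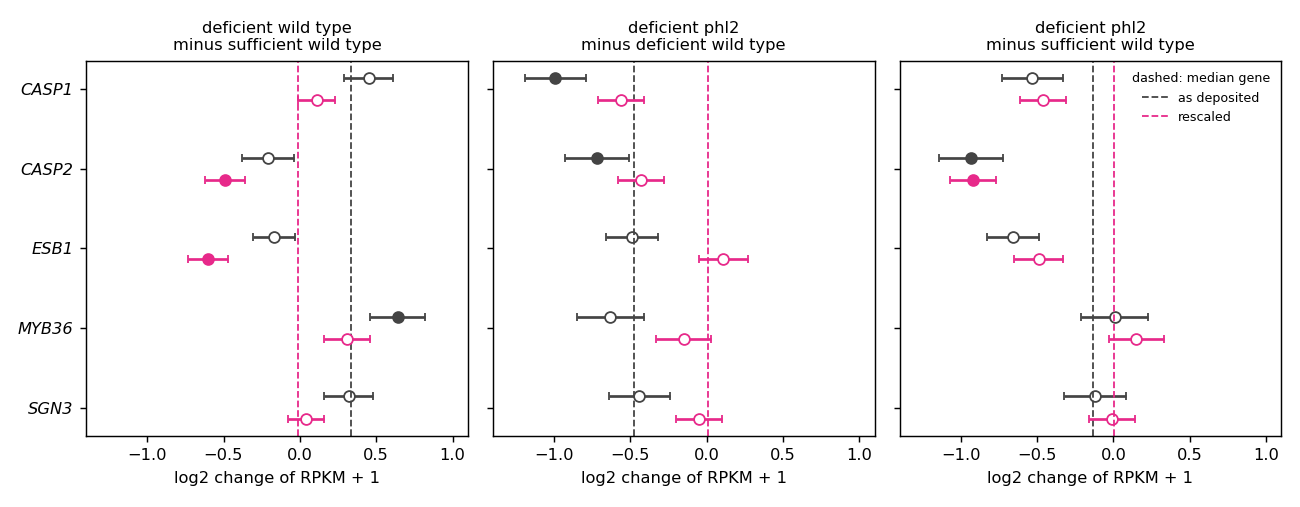
Log2 change of RPKM + 1 (horizontal axis) of the 5 tested members in 3 comparisons, as deposited (dark) and after rescaling (pink). Bars are standard errors from limma, filled points have an adjusted p under 0.05, and dashed lines are the medians of all tested genes. CASP2 lies left of both dashed lines in the comparison of phl2 with sufficient wild type, at -0.93 and -0.92, and MYB36 is called higher in wild type as deposited only.

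Values of ESB1 need their neighbour beside them. The gene (chr2:12300265-12302358, TAIR10.1, minus strand) shares 84.3% of its exonic bases with exons of AT2G28671, a gene on the opposite strand. AT2G28671 stood at 71.5 and 72.3 RPKM with phosphate, 60 and 60.6 in starved wild type and 55.9 and 58.6 in the columns of phl2, on 1103 to 1326 reads. Its level was thus far above that of ESB1 in every library. As deposited the order of the groups was the same for both genes, with sufficient wild type highest and phl2 lowest. AT2G28671 differed by -0.25 ± 0.09 in wild type as deposited (limma adjusted p = 0.063) and fell by 0.77 ± 0.18 after rescaling (adjusted p = 0.032). Between phl2 and deficient wild type it differed by -0.07 ± 0.11 as deposited (adjusted p = 0.6) and by 0.67 ± 0.22 after rescaling (adjusted p = 0.19), so the order of these groups turns with the scaling. Without the strand setting, reads of ESB1 and of AT2G28671 cannot be told apart, and either column may hold the transcripts of the other. Among the other members described, opposite-strand exons covered 7.9% of SGN3, 5.4% of CASP1 and 0.4% of CASP5, and 0 of CASP2, CASP4 and MYB36.

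**Figure D5:**
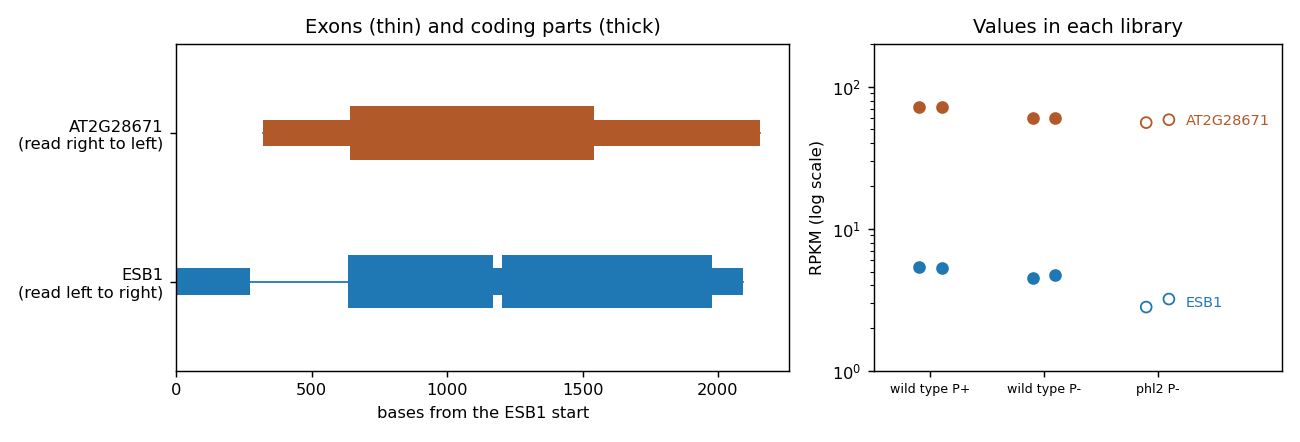
Left: annotated exons (thin, all transcripts joined) and coding parts (thick) of ESB1 and of AT2G28671 on the opposite strand, by distance in bases from the ESB1 start. Right: RPKM of both genes in each library on a log axis, with phl2 columns open. AT2G28671 lies over 84.3% of the ESB1 exons and stands between 55.9 and 72.3, while ESB1 stands between 2.81 and 5.36.

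Between phl2 and wild type under deficiency, CASP1 and CASP2 were called lower as deposited and no tested member was called after rescaling, with phl2 as 1 sample. CASP1 fell by 0.99 ± 0.20 on the log2 scale (limma adjusted p = 0.04) and differed by -0.56 ± 0.15 after rescaling (adjusted p = 0.16). CASP2 fell by 0.72 ± 0.21 (adjusted p = 0.047) and differed by -0.43 ± 0.15 after rescaling (adjusted p = 0.21). Both calls rest on 7 and 3 reads in phl2, and both were lost without replicate 3, 4 or 5, with adjusted p = 0.22, 0.11 and 0.058 for CASP1 and 0.23, 0.11 and 0.067 for CASP2. Over all alternatives adjusted p ran from 0.00054 to 0.59 for CASP1 and from 0.0018 to 0.64 for CASP2, and the lowest values came from counting the phl2 columns, which share reads, as separate replicates.

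The other tested members were not called in phl2 against deficient wild type. MYB36 differed by -0.63 ± 0.22 (limma adjusted p = 0.063) and SGN3 by -0.44 ± 0.20 (adjusted p = 0.11) as deposited, and by -0.15 ± 0.18 and -0.05 ± 0.15 after rescaling. ESB1 differed by -0.49 ± 0.17 (adjusted p = 0.065) as deposited and by 0.11 ± 0.16 after rescaling, so its direction depends on the scaling. As deposited 0 of 5 tested members were called higher and 2 lower, where 0.288% and 19.5% of all tested genes were. Their median change was -0.63 beside -0.478 for all tested genes. After rescaling 0 were called in either direction, against 0.0698% of genes higher and 0.0174% lower, and the median change of the 5 was -0.15 beside 0.00745 for all. At an unadjusted p under 0.05 in limma, 0 members were higher and 4 lower as deposited, beside 0.899% and 47.6% of all tested genes. After rescaling 0 were higher and 2 lower, CASP1 and CASP2, beside 12.7% and 6.39%.

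The phl2 sample was also set against sufficient wild type, a comparison that shares samples with both others and in which genotype and phosphate differ together. CASP2 fell by 0.93 ± 0.21 as deposited (limma adjusted p = 0.032) and by 0.92 ± 0.15 after rescaling (adjusted p = 0.018), the only member called on both scales in any comparison. It rested on 3 reads in phl2 (95% exact Poisson interval 0.619 to 8.77), against 24 summed over the sufficient libraries (15.4 to 35.7). The call was lost as deposited without replicate 1, 3 or 4 (adjusted p = 0.091, 0.074 and 0.08) and after rescaling without replicate 3 or 4 (0.056 and 0.062). Without the filter on low values it was lost on both scales (limma adjusted p = 0.19 and 0.086), where 0 and 18 of 24207 genes were called lower. Over all alternatives adjusted p ran from 0.00048 to 0.19.

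In the same comparison CASP1 differed by -0.53 ± 0.20 (limma adjusted p = 0.15) and ESB1 by -0.66 ± 0.17 (adjusted p = 0.055) as deposited, and by -0.46 ± 0.15 and -0.49 ± 0.16 after rescaling. ESB1 was called without replicate 6 as deposited (adjusted p = 0.037) and without replicate 1 after rescaling (adjusted p = 0.041), and over all its alternatives adjusted p ran from 0.0029 to 0.23. MYB36 differed by 0.01 ± 0.22 and SGN3 by -0.12 ± 0.20. As deposited 0 of 5 tested members were called higher and 1 lower, beside 2.54% and 5.22% of all tested genes, and after rescaling again 0 and 1, beside 5.2% and 5.05%. At an unadjusted p under 0.05 in limma, 0 members were higher and 3 lower on each scale, beside 6.6% and 16.1% of all tested genes as deposited and 13.5% and 13.1% after rescaling. The median change of the 5 was -0.53 as deposited and -0.46 after rescaling, beside -0.135 and 0.00524 for all tested genes.

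Other genes of the pathway were read from a list of 24, of which 21 were tested. In deficient against sufficient wild type 5 were called higher and 0 lower as deposited, beside 28% and 4.45% of all tested genes, and 3 higher and 2 lower after rescaling, beside 7.79% and 12.3%. At an unadjusted p under 0.05 in limma, 11 were higher and 0 lower as deposited, beside 41.6% and 6.36% of all tested genes, and 3 higher and 4 lower after rescaling, beside 14.8% and 20.3%. Their median change was 0.39 and then 0.03, beside 0.332 and -0.00906 for all. The counts hold SCZ, JKD and, of the peptide signalling genes, TPST, which reached 1 RPKM only in the group where each was high. Their place in the counts thus follows in part from the filter. TPST was among the 11 higher at an unadjusted p (0.044 in limma) as deposited, and was not called. Of the regulators, SHR, which moves from the stele and sets endodermal fate, rose by 0.55 ± 0.18 as deposited (limma adjusted p = 0.049; 0.22 ± 0.13 and not called after rescaling). SCZ, a heat shock factor family member that acts with it, stood at 0.44 and 0.166 RPKM with phosphate, 1.41 and 1.07 in starved wild type and 0.13 and 0.15 in the columns of phl2. Its log2 difference in wild type was 0.78 ± 0.16 (adjusted p = 0.011) and 0.56 ± 0.15 after rescaling (adjusted p = 0.042), and without the filter it was called on neither scale (adjusted p = 0.095 and 0.14). JKD, a zinc finger partner of SHR, differed by -0.26 ± 0.17 as deposited and by -0.50 ± 0.13 after rescaling (adjusted p = 0.044; 0.13 without the filter).

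Among the lignin polymerization genes, RBOHD, an NADPH oxidase that makes superoxide outside the cell, went from 1.56 in both sufficient libraries to 5.04 and 4.82 RPKM in deficient wild type, with 2.54 and 2.85 in the columns of phl2. It rose by 1.21 ± 0.15 (limma adjusted p = 0.0011) and after rescaling by 0.81 ± 0.12 (adjusted p = 0.0073). RBOHF, the NADPH oxidase known to act at the strip, differed by 0.43 ± 0.16 (adjusted p = 0.067) and was not called. The peroxidase gene AT4G11290 went from 1.41 in both sufficient libraries to 3.31 and 3.5, a rise of 0.87 ± 0.16 (adjusted p = 0.0063) and of 0.50 ± 0.13 after rescaling (adjusted p = 0.046). RCI3 (AT1G05260), another peroxidase, rose by 0.49 ± 0.15 as deposited (adjusted p = 0.04), and its change was 0.07 ± 0.11 after rescaling. CASPL1D2, a CASP-like membrane protein, fell after rescaling by 0.66 ± 0.16 (adjusted p = 0.031), and its change was -0.28 ± 0.21 as deposited.

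In phl2 against deficient wild type, 0 of the 21 were called higher and 9 lower as deposited, beside 0.288% and 19.5% of all tested genes, with a median change of -0.62 beside -0.478 for all. After rescaling 0 were called, beside 0.0698% of genes higher and 0.0174% lower, and the median was -0.10 beside 0.00745. At an unadjusted p under 0.05 in limma, 0 were then higher and 4 lower, beside 12.7% and 6.39% of all tested genes. AT4G11290 fell by 1.11 ± 0.19 as deposited (limma adjusted p = 0.04) and differed by -0.61 ± 0.16 after rescaling. UCC1, a blue copper protein of the strip, fell by 0.87 ± 0.20 (adjusted p = 0.04) and differed by -0.58 ± 0.17 after rescaling. EXO70A1, the exocyst subunit that positions the CASP domain, fell by 0.77 ± 0.20 (adjusted p = 0.043) and differed by -0.32 ± 0.15 after rescaling. SCZ, tested through its level in starved wild type, differed by -0.97 ± 0.20 (limma adjusted p = 0.04) and by -0.72 ± 0.18 after rescaling. Its adjusted p was 0.15 without the filter, a setting in which 0 of 24207 genes were called in this comparison on either scale. The peroxidase genes PER64 and AT5G66390 fell by 0.66 ± 0.20 and 0.75 ± 0.21 as deposited and differed by -0.10 ± 0.14 and -0.19 ± 0.14 after rescaling. RBOHD fell by 0.68 ± 0.18 and then differed by -0.09 ± 0.15. The dirigent family gene AT3G55230 and the CASP-like gene CASPL1D1 fell by 0.95 ± 0.20 and 0.91 ± 0.18, and differed by -0.38 ± 0.14 and -0.28 ± 0.15 after rescaling. The dirigent family gene AT1G07730 was listed at 0 in every column. In phl2 against sufficient wild type, CASPL1D1 fell on both scales (by 0.79 ± 0.18 as deposited, adjusted p = 0.033, and by 0.61 ± 0.15 after rescaling, adjusted p = 0.049), and RBOHD rose after rescaling by 0.72 ± 0.15 (adjusted p = 0.033). These were the only calls among the 21 there, beside 2.54% of all tested genes higher and 5.22% lower as deposited and 5.2% and 5.05% after rescaling.

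Markers of other cell types also differed between the groups. The 6 genes of the suberized endodermis, the later stage of the same cell layer, summed to 13.3 and 10.8 RPKM with phosphate, 20.2 and 17.4 in starved wild type and 8.14 and 9.41 in the columns of phl2. Of these 6, CYP86A1 and FAR4 were called higher in deficient wild type as deposited, where 28% of all tested genes were. After rescaling 0 were, beside 7.79% of all. CYP86A1, FAR4 and FAR5 were called lower in phl2 against deficient wild type as deposited, where 19.5% of all tested genes were. After rescaling 0 were, beside 0.0174% of all. At an unadjusted p under 0.05 in limma, 1 of the 6 was higher in deficient wild type after rescaling, beside 14.8% of all tested genes. In phl2 against deficient wild type 1 was then lower, beside 6.39% of all. The 4 epidermis and root hair markers summed to 5.84 and 4.58, 10.2 and 9.17, and 5.23 and 5.93, and went different ways in wild type. COBL9 and EXPA7 rose in deficiency by 0.91 ± 0.18 and 1.15 ± 0.19 as deposited and by 0.63 ± 0.14 and 0.74 ± 0.14 after rescaling. Of all tested genes 28% were called higher as deposited and 7.79% after rescaling. COBL9 reached 1 RPKM only in starved wild type and in replicate 6, so its test follows in part from the filter. Without the filter neither gene was called on either scale (limma adjusted p = 0.079 and 0.11 for COBL9, 0.075 and 0.088 for EXPA7). GL2 differed by -0.39 ± 0.16 as deposited and fell by 0.69 ± 0.14 after rescaling (limma adjusted p = 0.021). EXPA7 was also called lower in phl2 against deficient wild type as deposited, by 0.85 ± 0.23, where the median change of all tested genes was -0.478. After rescaling EXPA7 differed by -0.26 ± 0.17 there and was not called, beside a median of 0.00745. The 3 xylem markers summed to 6.28 and 6.28, 5.05 and 5.38, and 4.15 and 4.67. Of the 2 tested, CESA4 and CESA7 both fell in wild type after rescaling, by 0.59 ± 0.15 (limma adjusted p = 0.04) and 0.58 ± 0.12 (adjusted p = 0.022). Of all tested genes 12.3% were called lower there. Neither CESA4 nor CESA7 was called as deposited. The 2 phloem markers summed to 3.01 and 2.01, 3.88 and 3.93, and 1.88 and 2.17, and the 4 root meristem markers to between 1.7 and 2.39 in all columns, with PLT1 at 0 in replicate 2.

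The 4 shoot photosynthesis markers summed to 18.4 and 16.9 RPKM with phosphate, 12.7 and 10.4 in starved wild type and 3.96 and 4.58 in phl2. As deposited, ESB1, CASP2, CASP5 and the summed xylem markers were among those with the same order of group means. For CASP5, the columns of starved wild type and phl2 overlapped. Between phl2 and deficient wild type after rescaling, ESB1, CESA4 and CESA7 differed by 0.11 ± 0.16, 0.46 ± 0.19 and 0.28 ± 0.15, so phl2 was no longer lowest. CASP2 kept the order, with a difference of -0.43 ± 0.15. In wild type 3 of the 4 photosynthesis markers, RBCS1A, RCA and PSBR, were called lower in deficiency on both scales. Beside them, 4.45% of all tested genes were called lower as deposited and 12.3% after rescaling. CAB1 differed by 0.32 ± 0.22 as deposited and by -0.10 ± 0.17 after rescaling, and was called on neither scale. In phl2 against deficient wild type RBCS1A, RCA, CAB1 and PSBR differed by -1.21, -0.88, -1.33 and -0.37 as deposited. After rescaling they differed by -0.92, -0.52, -0.80 and 0.19. The medians of all tested genes were -0.478 and 0.00745 there. No marker list was at 0 as a whole. The part of these cell-type differences in the results for the Casparian strip genes was not tested.

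The genes most like the mean of the tested CASP genes were sought among the 1609 tested genes outside the lists with at least 5 RPKM on average. Likeness was the root mean square distance between centred log2 profiles over the 5 samples and the mean profile of CASP1 and CASP2. CASP1 and CASP2 went apart in wild type, so their mean is not the profile of either. As deposited the genes at small distances included AT1G06640, of the family of 2-oxoglutarate and iron dependent oxygenases, at a distance of 0.0329, and the pectin lyase-like gene AT4G24780 at 0.0349. They also included the lipid transfer protein gene LTPG5 at 0.0506 and AT3G56310 at 0.051. AT1G06640 stood at 6.54 and 5.63 RPKM with phosphate, 7.06 and 6.57 in starved wild type and 3.4 in phl2, so its groups of wild type nearly met and phl2 lay below all 4. After rescaling the nearest were SAG20 (0.0168), the peroxidase gene AT2G38390 (0.0477), the nitrilase gene NIT2 (0.053), AT3G30390 (0.0606) and AT5G18310 (0.065), and none of these was among the genes given as deposited.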

How the data were processed

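Polyadenylated RNA from roots was sequenced in 6 libraries, and the authors deposited RPKM for 33602 genes in 1 table. Per the submitters' processing notes TopHat2, DESeq2 and the build TAIR10 were used, with no version or role. No source used here gives the counter, its strand setting or the reads in the RPKM denominator. Whole reads were recovered from the steps of the deposited RPKM. Of 21776 genes above 0 in 3 or more columns, 20879 or 95.9% came out whole within 0.02 reads. Of the 11438 such genes with 1 transcript, 2186 gave the same denominators within a relative tolerance of 0.0001, and the others did not. The recovered reads are shown with 95% intervals and were not put into a count test, because the unit is RPKM. The reads behind the table came to between 616409 and 913051 per library. Per kilobase of gene, 1 RPKM stands for 9.42 to 12.8 reads.

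The phl2 columns were compared first. Of 21237 genes above 0 in either, 17207 held equal reads within a relative tolerance of 0.001, and replicate 6 was lower in the other 4030. The chi-square of read counts was 0.156 per gene between them and 1.241 and 1.115 within the wild-type groups. Their mean was used as 1 sample, whose spread is taken to equal that of the wild-type libraries.

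Values were analysed on the log2 scale as log2(RPKM + 1), computed from the deposited values, pseudocount 1, for 11463 genes that reached 1 RPKM in at least 2 of the 6 columns. Group means were fitted to 5 samples with limma 3.58.1 under R 4.3.3 (2 residual and 6.3 prior degrees of freedom, variance trended with level), with Benjamini-Hochberg adjustment over all tested genes. Rescaling divided each library by the median of its ratios to the geometric mean over genes above 0 in all samples (factors 1.00, 0.83, 1.38 and 1.24 for replicates 1 to 4 and 0.77 for phl2). Alternatives were quantile normalization, factors from genes with no opposite-strand exon, a pseudocount of 0.1, no filter, both phl2 columns as replicates and leaving out each replicate.

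No replicate number is used in more than 1 group, hence no samples are paired. The members and gene lists were chosen with earlier results of these data known. The text names the members, list genes called in a comparison on either scale (at most 6 per list and comparison, smallest adjusted p first), markers with their sums, and the 5 genes of most similar profile on each scale; 1 member and 1 gene of similar profile are not reported here. RBOHF, SCR, PER64, TPST, AT1G07730, PLT1, PHL2 and AT2G28671 are named outside this rule, after their values were seen. CIF1, CIF2, SGN1 and LOTR1 were left out of the lists because the annotation used does not give those names. Coordinates, exons and sequences are from RefSeq on TAIR10.1, which matched 32827 of the genes by identifier. Coding sequences were aligned and promoters searched with Biopython 1.88 in Python 3.11.15, tables were made with pandas 2.3.3, intervals with scipy 1.17.1 and figures with matplotlib 3.10.9.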

Additional observations from a re-analysis of the deposited data

How the results depend on the processing

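No paired analysis was possible because each replicate number occurs in only 1 group. The calls below are to be read beside those over all tested genes. With both phl2 columns as replicates, 5030 of 11463 genes were called higher and 743 lower in deficient against sufficient wild type. In phl2, 188 were then higher and 7448 lower against deficient wild type, and 864 and 2207 against sufficient wild type. After rescaling these counts were 1676 and 2141, 1475 and 913, and 1908 and 1822. For deficient against sufficient wild type, 1 member was called higher as deposited and 0 after rescaling, with quantile normalization, with factors from genes with no opposite exon, without the filter on either scale, and with pseudocount 0.1 or both phl2 columns after rescaling; both phl2 columns as deposited gave 2. Members called lower went from 0 to 2 with each scaling and with both phl2 columns rescaled, and to 1 with pseudocount 0.1 rescaled. Leaving out 1 replicate gave 0 to 1 higher and 0 to 2 lower. Of the other pathway genes, 5 were called higher as deposited, 3 after rescaling and with both phl2 columns rescaled, 2 with quantile normalization or with no opposite exon, 1 with pseudocount 0.1 rescaled or without the filter, 0 without the filter rescaled and 11 with both phl2 columns. Lower calls among them went from 0 to 2 with each scaling, 1 with pseudocount 0.1 rescaled and 4 with both phl2 columns rescaled. Leaving out 1 replicate gave 0 to 6 higher and 0 to 3 lower.

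For phl2 against deficient wild type, 2 members were called lower as deposited, 5 with both phl2 columns, and 0 with each scaling, pseudocount 0.1 and no filter, on either scale; leaving out 1 replicate gave 0 to 4. The 9 lower calls of other pathway genes went to 0 under the same settings, to 16 with both phl2 columns and to 5 with both rescaled, where 1 was higher; leaving out 1 replicate gave 0 to 11. For phl2 against sufficient wild type, 1 member was called lower as deposited, 0 without the filter on either scale and 3 with both phl2 columns on either scale; leaving out 1 replicate gave 0 to 2. Higher calls of other pathway genes went from 0 to 1 with each scaling and with pseudocount 0.1 rescaled, 2 with both phl2 columns and 3 with both rescaled, and 0 to 2 leaving out 1 replicate. Their 1 lower call went to 0 with no opposite exon, pseudocount 0.1 rescaled and no filter on either scale, to 6 with both phl2 columns and 8 with both rescaled, and 0 to 3 leaving out 1 replicate.

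The ESB1 difference between phl2 and deficient wild type turned from -0.49 to 0.11 after rescaling, to 0.14 with no opposite exon, 0.13 with pseudocount 0.1 rescaled, 0.11 without the filter rescaled and 0.11 with both phl2 columns rescaled; leaving out 1 replicate it ran from -0.56 to 0.19. That of MYB36 ran from -0.75 to 0.01 and turned without replicate 4 rescaled. Against sufficient wild type MYB36 turned without replicate 2 or 6 (-0.09 and -0.05; range -0.09 to 0.18) and SGN3 without replicate 1 or 5 rescaled (0.02 and 0.00; range -0.21 to 0.02). The filter alternative changes the number of genes tested, and leaving out a replicate the number of samples. Without the filter 0 of 24207 genes were called in phl2 against deficient wild type on either scale. The loss of calls there is thus not particular to the members. Against sufficient wild type 2 were then called higher and 0 lower, and 91 and 18 after rescaling. With pseudocount 0.1, 30 of 11463 genes were called lower in phl2 against deficient wild type, and 2 after rescaling. Other causes were not tested. The shares of CASP1, CASP2, CASP4 and CASP5 do not change with scaling. Depth limits CASP4 and CASP5, which rest on 0 to 5 reads per library. The rescaled fit without a filter was chosen after seeing the data.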
